A study of Mus musculus with 6 samples.

Results

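The genes described here encode the enzymes that write, copy and remove cytosine methylation and their closest partners. Members were taken by gene symbol from the table of normalized counts, which lists 23412 genes, and all 10 symbols were found: the maintenance pair Dnmt1 and Uhrf1, the de novo group Dnmt3a, Dnmt3b and Dnmt3l, the dioxygenases Tet1, Tet2 and Tet3, the glycosylase Tdg, and Mbd3. The study sequenced mRNA of undifferentiated mouse embryonic stem cells (mESCs) to look for genes behind the poor neural differentiation of cells without huntingtin. R1 is the parental wild type line, and Htt-null (HN) is the Htt-/- line, in which promoter and exon 1 of Htt are missing from both alleles. Both are 129Sv, with 3 libraries per line (6 in all) from 3 culture batches, each collected from both lines on a shared date. All cells were grown without feeders on gelatin in serum with LIF, an FGF receptor inhibitor, a MEK inhibitor and a GSK3 inhibitor. Since each genotype is represented by 1 line, the loss of Htt and any other difference between the lines cannot be told apart.

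DNA methylation in mammals sits mainly on the cytosine of CpG dinucleotides. Dnmt3a and Dnmt3b place it on unmethylated DNA, helped by Dnmt3l, and Dnmt1 copies it to the new strand after replication, at sites that Uhrf1 recognises. Tet enzymes oxidise methylcytosine in steps, and Tdg cuts out the most oxidised forms, which base excision repair then replaces with cytosine. In mESCs, inhibitors of MEK and GSK3 are known to lower DNA methylation and the expression of the de novo enzymes, and both lines were exposed to them. No methylation was measured in these libraries.

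Htt, the gene deleted in HN, had normalized counts of 230, 257 and 199 in R1 and 18.3, 58.1 and 54.2 in HN, on the first, the second and the third date (log2 fold change -2.52, adjusted p = 0.0141). Between 1640391 and 3866717 reads per library lay on genes. All 8 pluripotency markers had reads in every library, and their summed normalized count ran from 11007 to 16017 in R1 and from 11359 to 14968 in HN. With the collection date in the model, 3 of these 8 were higher and 2 lower in HN, beside 9.48% of all tested genes in either direction. Those that passed were Nanog, Klf4, Esrrb, Zfp42 and Utf1, so similar sums do not mean that the single markers were alike. The summed markers of primitive endoderm (36.2 to 159 in R1, 38.3 to 142 in HN), fibroblasts (37.0 to 101, 12.1 to 66.1), neural progenitors (55.5 to 206, 159 to 196) and mesoderm (83.0 to 169, 159 to 264) were low, and at 0 in all libraries for none of their genes. In the same model, T and Eomes of the mesoderm list and Olig2 of the neural list were higher in HN and Thy1 of the fibroblast list was lower, and none of these markers passed without the date. Their part in the differences below was not tested. In bulk RNA, fewer cells expressing a gene and less RNA per cell cannot be told apart.

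In HN mESCs, Uhrf1 and Tet2 lay above R1 on each date, on average by 1.49-fold and 1.54-fold. Dnmt3a and Dnmt3l lay below R1 on each date, on average by 1.94-fold and 1.63-fold. Dnmt1, Dnmt3b, Tet1, Tet3 and Mbd3 had log2 fold changes between -0.21 and 0.16. None of the 9 members that could be tested passed an adjusted p of 0.05 when the lines were compared as unpaired groups, and 0.245% of the 14276 tested genes did, 0.119% higher and 0.126% lower in HN (17 and 18 genes, or 30 and 19 after median centring). With the date as a block, which removes what the libraries of 1 date share, 4 of 9 members passed, 2 of them higher (Uhrf1 and Tet2) and 2 lower (Dnmt3a and Dnmt3l) in HN. In that comparison 9.48% of all tested genes passed, 5.46% higher and 4.02% lower. The share was larger among better-read genes: a blocked fit of the 7659 genes with a mean of at least 50 passed 1186. These genes include all tested members but Tet3. None of the members also had an absolute log2 fold change above 1, which 1.95% of all genes had together with a passing blocked p. The median log2 fold change was -0.0039 over the 9 members and -0.01 over all tested genes. Without the block, unadjusted p-values were under 0.05 for 2 members by limma and by edgeR (Uhrf1 and Dnmt3a) and for 3 by DESeq2 (also Tet2), against 5.91%, 6.14% and 5.25% of all genes. No member passed after adjustment without the block by edgeR or DESeq2 either, which called 0.238% and 0.785% of all genes. Limma, edgeR and DESeq2 all draw on the variance of other genes. The SEs and p-values given for a gene thus do not measure only its own spread over the same-date pairs.

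**Figure D1:**
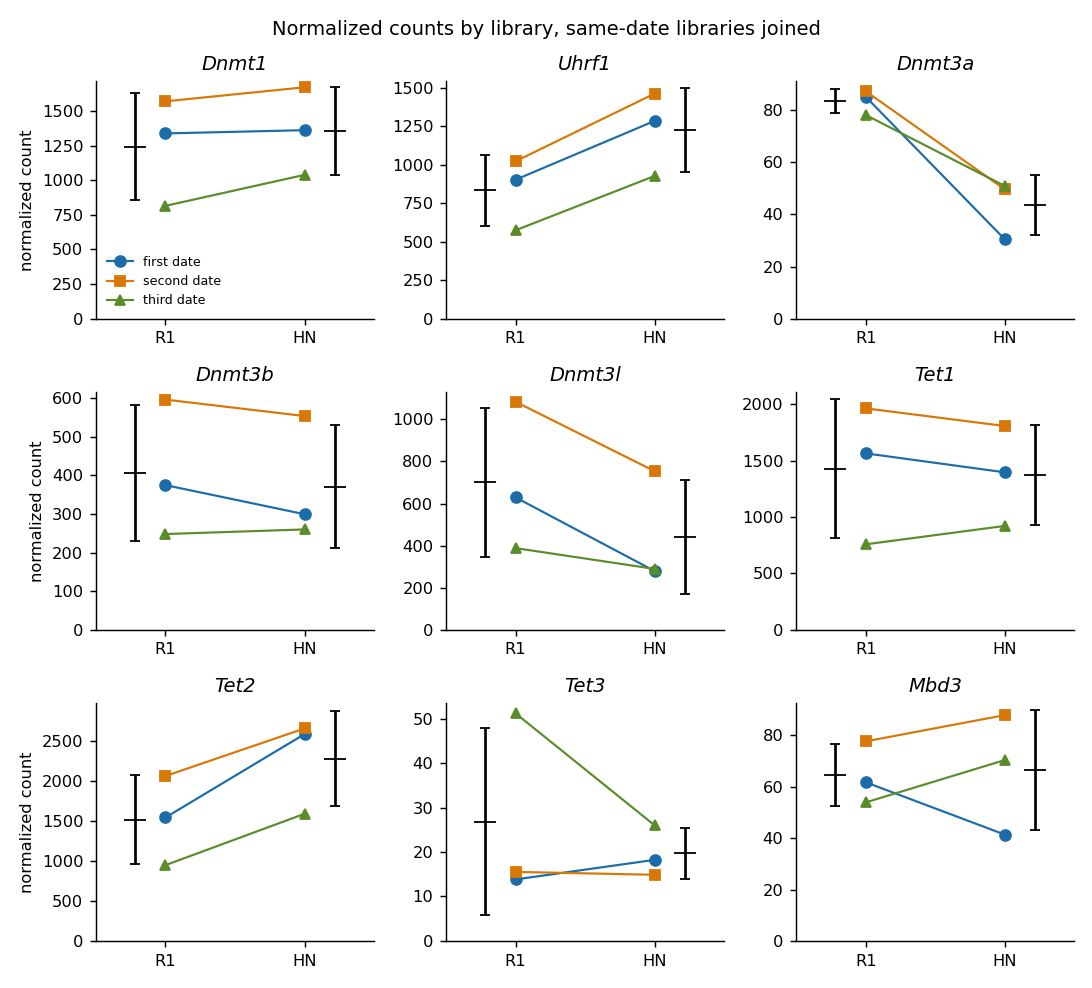
Normalized counts (y axes, from 0) of the 9 tested members in R1 and HN mESCs, with 1 point per library, lines joining libraries of the same collection date, and black bars for the mean and SD of each line (n = 3). Lines for Uhrf1 and Tet2 rise and those for Dnmt3a and Dnmt3l fall on all 3 dates, and only the Dnmt3a points of the lines do not overlap.

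The 4 members that passed with the block are shown with the DNA before their transcription starts, because CpG is the site these enzymes act on. Sequences are those of RefSeq for GRCm38.p6, which had entries for all 10 members. Each runs 5′ to 3′ along its gene up to the base before the start, exon bases are left out, and every CpG is in capitals.
Uhrf1, chr17:56304063-56304312, plus strand: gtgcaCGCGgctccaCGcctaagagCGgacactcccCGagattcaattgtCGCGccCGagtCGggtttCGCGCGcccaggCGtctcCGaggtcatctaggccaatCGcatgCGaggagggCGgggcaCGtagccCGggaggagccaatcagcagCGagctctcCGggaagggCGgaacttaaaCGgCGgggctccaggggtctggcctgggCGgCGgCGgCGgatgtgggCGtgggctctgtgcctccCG
Dnmt3a, first start, chr12:3806730-3806979, plus strand: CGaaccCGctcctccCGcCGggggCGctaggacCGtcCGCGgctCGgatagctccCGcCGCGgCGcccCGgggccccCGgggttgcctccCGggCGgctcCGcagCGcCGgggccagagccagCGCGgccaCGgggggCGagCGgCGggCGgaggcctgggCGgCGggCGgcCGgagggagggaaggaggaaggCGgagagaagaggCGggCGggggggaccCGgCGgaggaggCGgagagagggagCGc
Dnmt3a, internal start, chr12:3891494-3891727, plus strand: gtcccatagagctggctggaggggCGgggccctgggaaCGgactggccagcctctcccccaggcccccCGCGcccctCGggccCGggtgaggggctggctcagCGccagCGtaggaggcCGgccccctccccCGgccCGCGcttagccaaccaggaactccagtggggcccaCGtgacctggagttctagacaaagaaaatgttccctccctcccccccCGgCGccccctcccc
Dnmt3l, chr10:78049592-78049841, plus strand: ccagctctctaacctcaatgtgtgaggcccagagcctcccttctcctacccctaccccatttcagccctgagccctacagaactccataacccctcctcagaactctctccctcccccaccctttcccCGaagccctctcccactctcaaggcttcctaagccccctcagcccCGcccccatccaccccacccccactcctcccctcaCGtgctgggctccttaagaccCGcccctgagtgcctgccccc
Tet2, chr3:133544391-133544640, minus strand: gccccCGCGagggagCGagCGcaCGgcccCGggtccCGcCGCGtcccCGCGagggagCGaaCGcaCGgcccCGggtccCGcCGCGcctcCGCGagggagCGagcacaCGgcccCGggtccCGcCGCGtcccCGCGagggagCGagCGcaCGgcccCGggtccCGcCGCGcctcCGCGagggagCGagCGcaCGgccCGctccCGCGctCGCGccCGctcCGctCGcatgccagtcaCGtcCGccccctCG

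All 5 stretches lie inside the bounds of their gene in GENCODE M21 but outside its annotated exons, and they ranged from CpG-poor to CpG-rich. The Tet2 stretch held 51 CpGs in 250 bases and the first Dnmt3a stretch 38, while the Dnmt3l stretch held 4. Over all 32851 windows of 250 bases before a RefSeq start, the median was 6 CpGs, with quartiles at 2 and 16. Uhrf1 had 30 CpGs, and the 234 bases before the internal Dnmt3a start, from which the shorter isoform typical of mESCs is known to be made, had 15. Other starts of these genes are not shown. Their 250-base windows had 10 CpGs for Uhrf1, 40 for Dnmt3a, and 5 and 3 for Dnmt3l. A search of both strands for TTTCGCGC, an E2F-type motif chosen after the sequences were seen, found it in the Uhrf1 stretch 185 bases before the start and in 1 of the Dnmt1 windows, and in 0.256% of all windows. The motif contains CpGs that are also counted above. The related TTTGGCGC was in none of the members' windows and in 0.417% of all.

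Of the maintenance pair, Uhrf1 differed between the lines within each date. Dnmt1, the maintenance methyltransferase (chr9:20907209-20959888, minus strand), had 1339, 1571 and 815 normalized counts in R1 and 1363, 1673 and 1040 in HN, so the lines overlapped. Its log2 fold change was 0.16 (SE 0.26, adjusted p = 1 without the block and 0.333 with it), and the blocked 95% interval ran from -0.03 to 0.34. All 3 same-date differences were above 0, at 0.03, 0.09 and 0.35. Uhrf1 (chr17:56303321-56323486, plus strand), which binds hemimethylated CpG and brings Dnmt1 to it, had 903, 1022 and 574 in R1 and 1285, 1462 and 927 in HN. The lowest HN library, from the third date, lay within the R1 range. Its mean was 833 ± 232 in R1 and 1225 ± 273 in HN (SD, n = 3), a log2 fold change of 0.57. The SE was 0.25 without the block (adjusted p = 0.811) and 0.09 with it (adjusted p = 2.52e-05). On the recovered reads, blocked edgeR and DESeq2 gave 1.90e-06 and 3.07e-06. Same-date differences were 0.51, 0.52 and 0.69. Of the 50-base stretches of Uhrf1 transcripts, 15.4% also occur in Gm5648 or Gm15953, so some of its reads could belong to those copies.

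Relative to Dnmt1 in the same library, Uhrf1 separated the lines. The log2 ratio of their normalized counts was -0.57, -0.62 and -0.51 in R1 and -0.08, -0.19 and -0.17 in HN, so that all HN libraries lay above all R1 libraries. The ratio was 1.33-fold higher in HN. Ratios of 7 pairs of members were computed after the values of the members were known, and no test was made on them. A ratio within a library also takes out what both genes share on a date, so it is not independent of the block. The share of all gene pairs whose ratios separate the lines was not computed. Both limits hold for the other ratios below.

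Of the 3 de novo genes, Dnmt3a and Dnmt3l were lower in HN with the block, and Dnmt3b did not pass. Dnmt3a (chr12:3806007-3914443, plus strand), a de novo methyltransferase, had 85.2, 87.3 and 78.2 normalized counts in R1 and 30.4, 49.6 and 50.9 in HN. It was the only tested member whose lines did not overlap, a pattern found in 10.8% of all tested genes (5.54% with HN lower and 5.23% with HN higher). Its mean was 83.5 ± 4.77 in R1 and 43.6 ± 11.5 in HN (SD, n = 3), a log2 fold change of -0.96. The SE was 0.27 without the block (adjusted p = 0.374) and 0.19 with it (adjusted p = 7.54e-04), and blocked edgeR and DESeq2 gave 1.55e-04 and 0.0363. The gene was read thinly, with 80, 118 and 58 reads in R1 and 25, 70 and 47 in HN. Its same-date differences, -1.46, -0.80 and -0.61, put the widest gap on the first date. Reads were counted per gene, so the first and the internal start shown above are not separated.

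Dnmt3b (chr2:153649450-153687730, plus strand), the other de novo methyltransferase, had 375, 596 and 248 in R1 and 299, 554 and 260 in HN. The lines overlapped throughout, and HN was lower on 2 of the 3 dates. Its log2 fold change was -0.12 (SE 0.34, adjusted p = 1 without the block and 0.574 with it), with a blocked 95% interval from -0.34 to 0.10. Of its 50-base stretches 9.81% are shared with Dnmt3c, a rodent copy active in male germ cells. Dnmt3l (chr10:78041947-78063622, plus strand), a catalytically inactive partner that stimulates Dnmt3a and Dnmt3b, had 629, 1084 and 388 in R1 and 279, 753 and 289 in HN. The HN library of the second date lay above the R1 libraries of the other dates. Its mean was 700.4 ± 353 in R1 and 440.4 ± 271 in HN (SD, n = 3), a log2 fold change of -0.71. The SE fell from 0.41 without the block (adjusted p = 1) to 0.11 with it (adjusted p = 3.08e-05), and blocked edgeR and DESeq2 gave 8.22e-07 and 8.54e-05. The same-date differences were -1.17, -0.52 and -0.42. In blocked limma without the variance trend, its adjusted p was 0.259. Antisense to it, Aire covers 2.24% of its exon bases, and the library kit does not mark strand.

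Per unit of Dnmt3b, Dnmt3l separated the lines. The log2 ratio of Dnmt3l to Dnmt3b was 0.75, 0.86 and 0.64 in R1 and -0.10, 0.44 and 0.15 in HN, with no overlap and a difference of -0.59 between the means. The ratios of Dnmt3a to Dnmt3b, Dnmt3b to Dnmt1 and Dnmt3l to Dnmt3a overlapped between the lines.

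**Figure D2:**
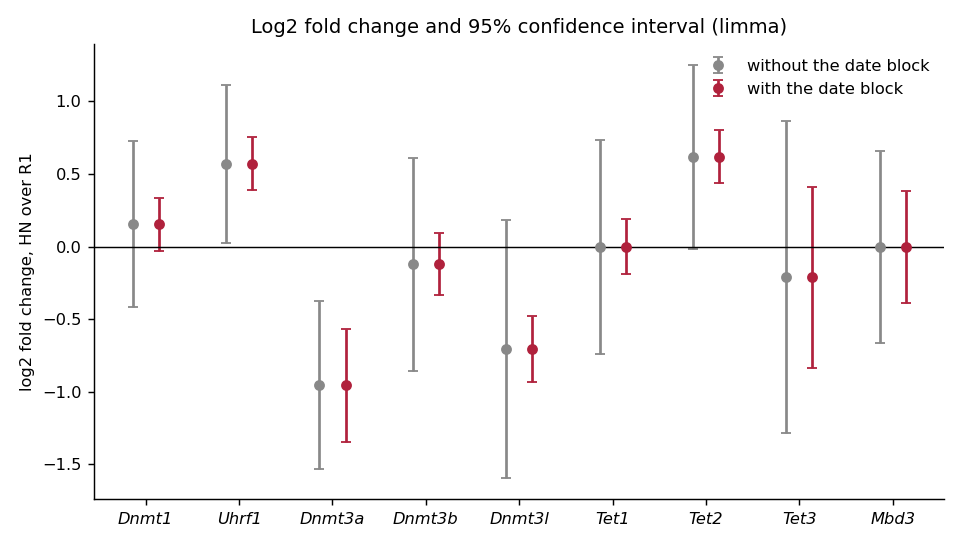
Log2 fold change of HN over R1 (y axis) for the 9 tested members, with the 95% confidence interval of limma without (grey) and with (red) the collection date as a block. The estimates are the same, and the blocked intervals of Uhrf1, Dnmt3a, Dnmt3l and Tet2 lie on 1 side of 0.

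The 3 Tet genes differed from one another. Tet1 (chr10:62804570-62908996, minus strand), a Tet enzyme with a CXXC domain that binds CpG, had 1564, 1963 and 757 normalized counts in R1 and 1396, 1806 and 921 in HN. HN was lower on the first and second dates and higher on the third, by -0.16, -0.12 and 0.28 on the log2 scale. Its log2 fold change was -0.00099 (SE 0.34, adjusted p = 1 without the block and 0.998 with it), and the blocked 95% interval ran from -0.19 to 0.19. Tet2 (chr3:133463679-133545139, minus strand), which lacks a CXXC domain of its own, had 1544, 2062 and 948 in R1 and 2587, 2657 and 1590 in HN. Only the HN library of the third date lay within the R1 range. Its mean was 1518 ± 558 in R1 and 2278 ± 597 in HN (SD, n = 3), a log2 fold change of 0.62. The SE was 0.29 without the block (adjusted p = 0.879) and 0.09 with it (adjusted p = 7.50e-06), and blocked edgeR and DESeq2 gave 2.14e-07 and 3.87e-07. The same-date differences were 0.74, 0.37 and 0.75.

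The balance of Tet2 and Tet1 separated the lines. The log2 ratio of Tet2 to Tet1 was -0.02, 0.07 and 0.32 in R1 and 0.89, 0.56 and 0.79 in HN, a 1.54-fold higher ratio in HN with no overlap. Tet3 (chr6:83362373-83459084, minus strand), the Tet enzyme known for oxidising the paternal genome in the zygote, was low, with 13.8, 15.5 and 51.2 normalized counts in R1 and 18.3, 14.9 and 26.0 in HN. These rest on 13 to 38 reads per library, and the highest value was that of R1 on the third date. Its log2 fold change was -0.21 (SE 0.49, adjusted p = 1 without the block and 0.770 with it), with a blocked 95% interval from -0.84 to 0.41.

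Tdg, the glycosylase that removes formylcytosine and carboxylcytosine, was at or near 0. R1 had 3, 0 and 0 reads and HN had 1, 1 and 1, so every library was at or below the floor of 3 reads, no fold is given, and the gene was left out of the tests. Of its 50-base stretches 41.2% also occur in other genes, among them Tdg-ps and Gm9855, and reads that match several genes need not have been counted for any, which was not tested. The remaining stretches occur in no other gene. Antisense to Tdg, Glt8d2 covers 6.83% of its exon bases. Mbd3 (chr10:80392539-80399550, minus strand), a subunit of the NuRD deacetylase and remodelling complex with a methyl-CpG-binding fold that binds methylated DNA poorly, had 61.7, 77.7 and 53.9 in R1 and 41.4, 87.9 and 70.4 in HN. The HN libraries spanned the whole R1 range. Its log2 fold change was -0.0039 (SE 0.30, adjusted p = 1 without the block and 0.995 with it), and the blocked 95% interval ran from -0.39 to 0.38.

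More members differed between the collection dates than between the lines. With the line in the model, 8 of the 9 tested members passed the test of the dates, against 46% of all tested genes, and Dnmt3a did not pass (adjusted p = 0.353). In both lines, Dnmt1, Uhrf1, Dnmt3b, Dnmt3l, Tet1, Tet2 and Mbd3 (7 of 9) were highest on the second date, as were 27.1% of all genes. Dnmt1, Uhrf1, Dnmt3b, Tet1 and Tet2 (5 of 9) were lowest on the third date in both lines, as were 29.5% of all genes. Averaged over the lines, the second date exceeded the third by 2.69-fold for Dnmt3l, 2.26-fold for Dnmt3b and 2.25-fold for Tet1. The test covers all 3 dates at once (adjusted p = 4.12e-09, 1.01e-07 and 7.55e-09), and single pairs of dates were not tested. For Tet2, Dnmt1 and Uhrf1 the same contrast was 1.91-fold, 1.76-fold and 1.67-fold, each larger than the difference of that gene between the lines. Since it takes the highest and the lowest of 3 dates, such a contrast tends to exceed a single difference between the lines. Tet3 was highest on the third date in both lines, where its highest library exceeded its lowest by 3.70-fold in R1 and 1.75-fold in HN (adjusted p over the 3 dates = 0.0126). Mbd3 had an adjusted p over the 3 dates of 0.0408. Libraries of the third date also had reads on more genes (20675 in R1 and 20542 in HN) than the other 4 (18133 to 19083), although R1 of that date had the fewest reads, and the part of this in the date differences was not tested.

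**Figure D3:**
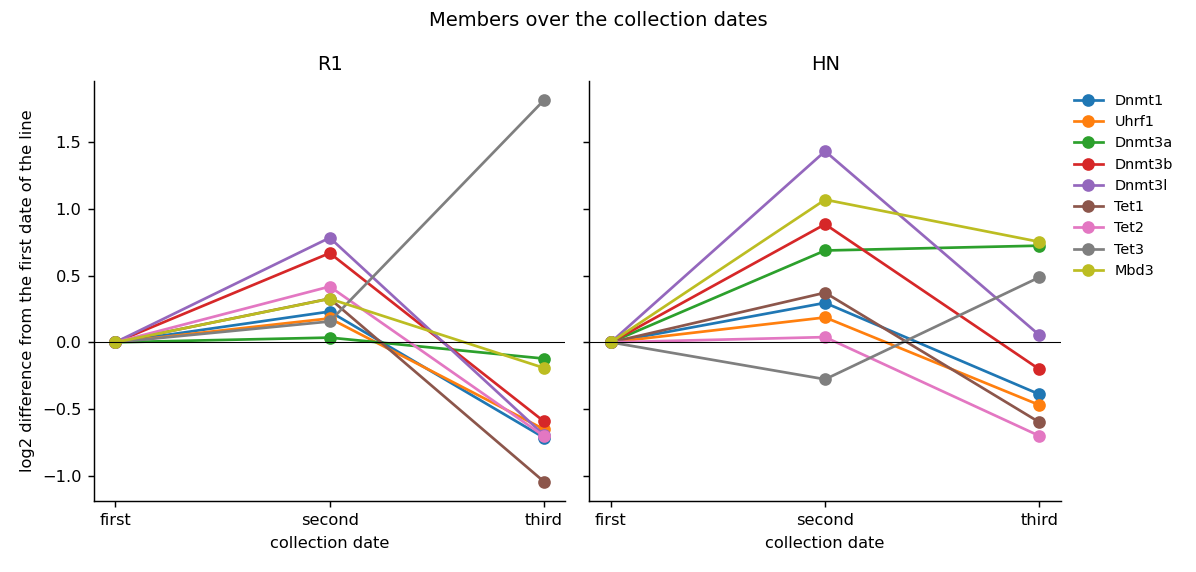
Log2 difference of each tested member (y axis) from the first collection date of its own line, for R1 (left) and HN (right) mESCs, with 1 line per gene over the 3 dates (x axis). Dnmt3l and Dnmt3b peak on the second date in both lines, Dnmt1, Uhrf1, Tet1 and Tet2 are lowest on the third, and Tet3 is highest on the third.

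The direction was the same on all 3 dates for 5 of the 9 tested members and for 41.5% of all tested genes. Dnmt1, Uhrf1 and Tet2 were higher in HN on each date, as were 20.3% of all genes, and Dnmt3a and Dnmt3l lower, as were 21.1%. Dnmt3b, Tet1, Tet3 and Mbd3 changed sides between dates.

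Per kilobase of merged exons, Uhrf1 was the highest member and Tdg the lowest. The mean level over the 6 libraries was 242 normalized counts per kb for Uhrf1, 191 for Dnmt3l, 176 for Dnmt1, 113 for Tet2, 90.6 for Tet1 and 76.1 for Dnmt3b. Mbd3 followed at 33.0, Dnmt3a at 3.82, Tet3 at 1.39 and Tdg at 0.19. Tdg was at or below the floor of 3 reads in every library, so its place is one of counted reads. Whether reads of Tdg were lost in counting was not tested. Uhrf1 was above Dnmt3l in 5 libraries, Dnmt3l above Dnmt1 in 4 and Tet2 above Tet1 in 4, so the order of these neighbours was not the same in all 6, while the other neighbours kept theirs. Between the lines, Dnmt3l was above Uhrf1 in mean level in R1 (234 ± 118 against 196 ± 54.5 per kb) and below it in HN (147 ± 90.8 against 288 ± 64.0, SD, n = 3). Among the de novo enzymes, Dnmt3b had 79.6 ± 34.5 per kb in R1 and 72.6 ± 31.2 in HN, and Dnmt3a 5.02 ± 0.29 and 2.62 ± 0.69. With the length of the longest transcript in place of merged exons, 8 of 10 members kept their place and Dnmt3l and Uhrf1 changed places. By that length, Dnmt3b had a mean of 94.1 per kb in R1 and 85.9 in HN, and Dnmt3a 8.63 and 4.51. Dnmt1 was then above Tet2 in 4 libraries, and Tet1 above Dnmt3b in 3.

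**Figure D4:**
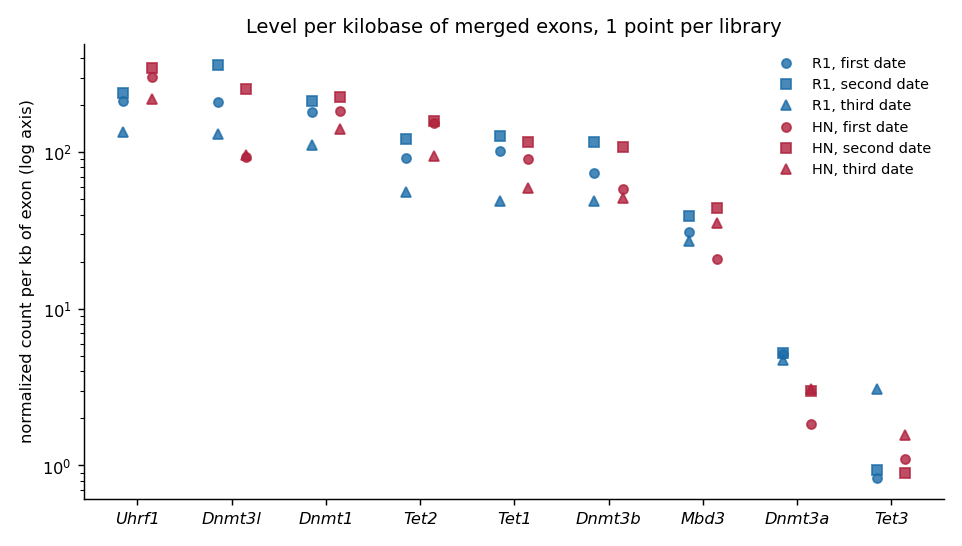
Normalized count per kb of merged exons (y axis, log scale) for 9 members in order of their mean level, with 1 point per library, blue for R1 and red for HN and a marker shape for each collection date. The 6 genes on the left lie between 48.6 and 363 in every library, Mbd3 lies below them, and Dnmt3a and Tet3 lie lowest.

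For each member, the genes with the most similar pattern were taken as those with the highest Pearson correlation of log2 values over the 6 libraries, among 7642 genes (7643 for Tet3) with a mean of at least 50. The points share dates and lines, and the values are given as a description. Dnmt3a was most like Htt (r = 0.997) and next Nr2f6 (r = 0.990), a nuclear receptor with 96.9, 108 and 95.7 normalized counts in R1 and 49.9, 65.9 and 73.6 in HN. Dnmt1 was most like Fbxw7 (r = 0.998), a ubiquitin ligase subunit, and Pcna (r = 0.997), the sliding clamp of replication. Uhrf1 was most like 1700061G19Rik and Arih1, Tet2 most like 2610019F03Rik and Fbxo11, and Dnmt3l most like Sugp1 and Gmnn, with r from 0.994 to 0.999. The nearest genes of Dnmt3b were Prpf31 and Ankrd11, those of Tet1 Mcrs1 and Rad9a, those of Tet3 Sertad2 and Ryr1, and those of Mbd3 2610507B11Rik and Nek4. A high r was common: 1002 genes exceeded 0.9 for Dnmt1, 513 for Uhrf1, 492 for Tet2 and 93 for Dnmt3a.

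Among 70 other genes of the pathway, in 7 lists, 68 could be tested and 0 passed without the block by limma and by edgeR. Unadjusted limma p-values were under 0.05 for 5 of them (7.35%), beside 5.91% of all tested genes. DESeq2 without the block passed 1 (Ahcy, 1.47%), beside 0.785% of all tested genes. With the block, 4 were higher and 3 lower in HN, or 10.3% of the 68, beside 9.48% of all tested genes. The median log2 fold change was 0.04. The partners of maintenance methylation (8 tested), the methyl-CpG readers (7) and the NuRD subunits (12) had none that passed with the block. Log2 fold changes ran from -0.11 (Ehmt2) to 0.40 (Dppa3) among the partners of maintenance methylation and from -0.15 (Rbbp7) to 0.42 (Gatad2b) among the NuRD subunits, and the lowest of the readers was -0.41 (Zbtb4). Pcna and Hells, which work with Dnmt1 at replicating chromatin, had 0.06 and 0.03.

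Of the 17 genes of demethylation and base excision repair, 1 was higher and 1 lower with the block. Apex1, the endonuclease that cuts the DNA backbone at the site a glycosylase leaves, had a log2 fold change of 0.29 (adjusted p = 1 without the block and 0.0416 with it). Blocked DESeq2 did not pass it (adjusted p = 0.122), nor did blocked limma without the second (0.324) or the third date (0.147). Gadd45a, a stress-induced adaptor linked to demethylation, had 83.0, 85.8 and 64.7 normalized counts in R1 and 45.0, 58.8 and 40.1 in HN. Its lines did not overlap, and its log2 fold change was -0.69 (adjusted p = 0.651 without the block and 0.0105 with it). It did not pass by blocked DESeq2 (adjusted p = 0.183) or by blocked limma without the first (0.0711) or the second date (0.0956).

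Of the 6 genes of imprint maintenance and Dnmt3 repression, 2 were higher with the block. Zfp57, a zinc finger protein that keeps imprints methylated, had 1386, 1821 and 797 in R1 and 2038, 2328 and 1187 in HN, which overlapped. It was 1.41-fold higher in HN (adjusted p = 1 without the block and 1.46e-04 with it). Prdm14, known to repress Dnmt3 genes in mESCs, had 82.0, 72.5 and 89.0 in R1 and 142, 104 and 153 in HN, with no overlap, and was 1.62-fold higher (adjusted p = 0.553 without the block, 0.00152 with it and 0.0532 by blocked DESeq2, which did not pass).

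Of the 8 genes that supply methyl groups, 1 passed with the block. Ahcy, which clears the S-adenosylhomocysteine left by every methylation reaction, had 153, 161 and 117 in R1 and 238, 242 and 259 in HN, so that the lines lay well apart. It was 1.72-fold higher (adjusted p = 0.290 without the block and 4.82e-05 with it). The other 7, Mat2a among them, had log2 fold changes between -0.06 and 0.15. Of 15 germline genes whose promoters are known to be methylated in somatic cells, 13 were tested and 2 were lower with the block, both of the synaptonemal complex. Sycp3 had a log2 fold change of -1.53 (adjusted p = 0.511 without the block and 5.95e-04 with it) and Syce1 of -0.95 (0.563 and 0.00181). Sycp3 was read thinly, with 69, 33 and 25 reads in R1 and 12, 10 and 19 in HN. Its same-date differences were -2.25, -1.65 and -0.69. The median of this list, in which some genes were read more thinly than Sycp3, was -0.29. Its highest value was 0.46 (Hormad1), and Dazl had 0.23.

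**Figure D5:**
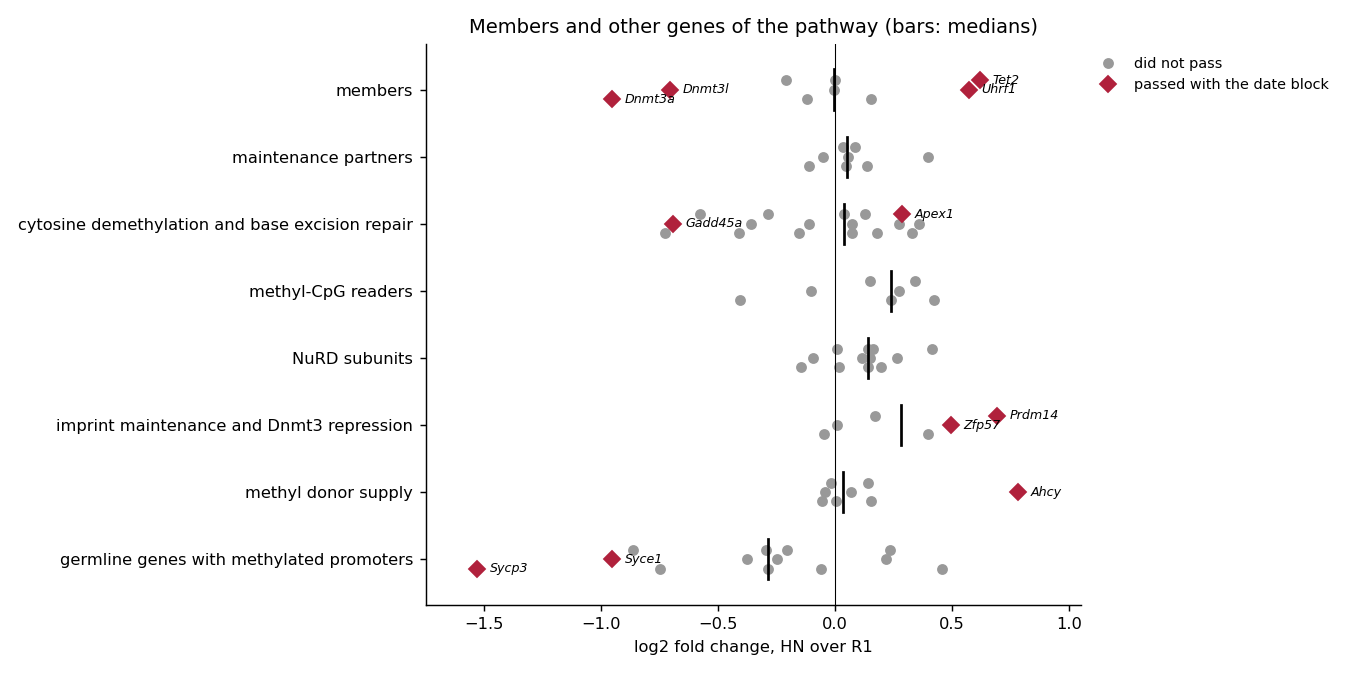
Log2 fold change of HN over R1 (x axis) for the tested members and the 7 lists of other pathway genes, with 1 point per gene, red diamonds for genes that passed with the date block and vertical bars for medians. The 4 named members and 7 named list genes lie on both sides of 0, and 3 lists have no diamond.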

How the data were processed

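The libraries were made with a TruSeq RNA kit (version 2) and sequenced as paired ends. The authors used STAR for alignment to mm10/GRCm38, Picard to drop PCR duplicates and HTSeq to count the exonic reads of a gene, and scaled the libraries by DESeq2 size factors; tool versions and gene annotation are not given in the sources used here. The deposited signal is therefore a normalized count per gene. Unused columns numbered 0. Rows whose symbol had become a date (27) are not named.

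All values (100%) equalled a whole number of reads within 0.01 of a read, so reads were recovered for depth and for count tests. Log2(normalized count + 1) of the 14276 genes with a mean of at least 5 was compared between all 3 HN and all 3 R1 libraries with limma 3.58.1 (variance trend, R 4.3.3) and Benjamini-Hochberg adjustment over all these genes. Fold changes on this scale understate those of low genes. A gene passed at an adjusted p under 0.05. Dates were tested with an F test in a model with the line. Tests on the recovered reads with edgeR 4.0.16 (quasi-likelihood) and DESeq2 1.42.0 were alternatives, with other pseudocounts, filters, scalings and left-out libraries. On the recovered reads, edgeR without the block passed 34 genes.

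The comparison has no block, since the methods name none. Replicate numbers pair the libraries because the labels give each number a shared collection date; deviations from the line means correlated at 0.25, 0.69 and 0.77 within dates and from -0.71 to 0.34 across dates, and the R1 library of the first date correlated best with the HN library of the second (0.34). Blocked values are given wherever they change the call of a member or pathway gene. Replicates of a line differed by more than counting error (chi-square per degree of freedom 4.70 to 9.89).

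Members and gene lists were chosen with earlier results of these data known. Named genes are the members, Htt, list genes that passed (otherwise the highest and lowest of a list), and for each member the 2 genes most like it. Pcna, Hells, Mat2a, Dazl and Hormad1 were added after their values were seen. Positions and lengths come from GENCODE M21 (GRCm38), promoter windows from RefSeq. Counting intervals and the floor of 3 reads cover counting error only.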

Additional observations from a re-analysis of the deposited data

How the results depend on the processing

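No member passed in any of the 16 settings without the date block. With the replicate block, 2 members were higher and 2 lower in each of the 12 blocked settings other than that without the variance trend, and these were Uhrf1, Tet2, Dnmt3a and Dnmt3l in every one, the fits that left out 1 date included. Fits that left out 1 date keep little of a gene's own spread, so passing there rests mostly on the variance of other genes. Without the variance trend, 0 of all tested genes passed with or without the block (adjusted p of the 4 members 0.228 to 0.259 with it), and 0 members passed the test of dates in place of 8. Over all genes, 35 passed without the block (9 to 56 when 1 library was left out, 49 after median centring, 112 with DESeq2) and 1354 with it. Blocked counts were 512 with DESeq2, 1605 with edgeR, 962 without a filter on low values, and 486 to 1723 when 1 date was left out. DESeq2 without the block passed 1 pathway gene as higher. With the block, pathway genes higher in HN numbered 4, with 2 by DESeq2, 5 by edgeR and after median centring, 3 without a filter and 3 to 4 when a date was left out. Those lower numbered 3, with 2 by DESeq2, 2 at a mean of at least 50 and 2 to 3 when a date was left out. Blocked fits with another pseudocount, filter or scaling, or without the variance trend, were added after seeing the data.

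Directions of Uhrf1, Dnmt3a, Dnmt3l and Tet2 were the same in all 29 settings, but single libraries moved the unblocked size. Uhrf1 ran from 0.32 (without R1 replicate 3) to 0.76, Tet2 from 0.31 (without R1 replicate 3) to 0.88, Dnmt3a from -1.08 to -0.72, and Dnmt3l from -1.17 (without HN replicate 2; -1.07 without R1 replicate 3) to -0.33 (without R1 replicate 2; -0.46 without HN replicate 1). With the block and 1 date left out, these ran from 0.51 to 0.60, from 0.55 to 0.75, from -1.13 to -0.71 and from -0.85 to -0.47. The log2 fold changes near 0 turned sign. Leaving out 1 library moved Dnmt1 between -0.12 and 0.35, Dnmt3b between -0.45 and 0.20, Tet1 between -0.40 and 0.28, Tet3 between -0.54 and 0.37 and Mbd3 between -0.23 and 0.30. With the block and without the first date, Tet1 had 0.081 and Mbd3 0.28, without the second date Tet1 had 0.058, and without the third Tet3 had 0.16. After median centring, with or without the block, Tet1 had 0.013 and Mbd3 0.010. Mbd3 also had 0.047 with DESeq2 (0.0085 blocked), 0.055 with edgeR (0.043 blocked), 0.021 after quantile normalization and 0.0027 at a pseudocount of 10, the last pair with or without the block. The cause was not tested. Of the members, Tdg (at most 3 reads in a library), Tet3 and Dnmt3a had the fewest reads per kb of exon.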
